A study of Mus musculus with 6 samples.

Results

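The proteasome is the barrel-shaped protease that degrades proteins tagged with ubiquitin. Its core has outer rings of alpha subunits, which gate the entrance, and inner rings of beta subunits, of which Psmb5, Psmb6 and Psmb7 carry the cutting sites. In cells exposed to interferon these are exchanged for the immune subunits Psmb8, Psmb9 and Psmb10, which change the peptides that are offered to T cells. A cap with ATPase subunits, which unfold the substrate, and non-ATPase subunits, which bind and remove ubiquitin, sits on the core, and other activators can take its place. The Psmg proteins and a few Psmd proteins act as chaperones during assembly and are not part of the finished particle.

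The genes were chosen by symbol from the annotation of the Affymetrix MG_U74Av2 array, as all probe sets naming a single gene whose symbol begins with Psm, a letter from a to g and a number. This gave 46 genes on 58 probe sets, of 12488 probe sets in all. A probe set is a group of short oligonucleotides read together as a measure of a transcript, and some name more than 1 gene. Whether probes of the members also match related transcripts was not tested. Psmc3ip, a recombination factor, and Psme3ip1, a partner of an activator, match the pattern without being proteasome genes and were kept apart. The remaining 44 genes had 56 probe sets, with 7 genes of the core alpha ring, 7 constitutive and 3 immune beta subunits, 6 ATPases, 11 non-ATPases, 3 activators and 7 assembly factors. The 2 probe sets of the activator Psme2 name another gene as well and were not used here.

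RNA came from whole adrenal glands of the mouse strains BPH, which is hypertensive, and BPL, which is hypotensive, with 3 arrays per strain. No treatment is named for either strain, and the sources used here do not give age, sex or the number of animals per array. The labels call the arrays replicates without saying that they come from separate animals, so the p-values measure the spread between these arrays, which may be technical. The comparison asks which proteasome transcripts differ between the strains in this tissue.

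Values are deposited intensities on a linear scale, with no detection call. Median intensities of the 6 arrays ran from 1003.5 to 1114.7. Markers of the adrenal cortex and of chromaffin cells, the catecholamine-making cells of the medulla, were bright on all arrays, with summed intensities of at least 716816 and 143795. The chromaffin sum was between 275872 and 314690 in BPH and between 143795 and 271048 in BPL, with 9 of 10 tested probe sets positive. At an unadjusted p under 0.05 there were 6 of the 10 (60%), against 19.3% of all tested probe sets. The 1 called probe set (10%, against 2.52% of all tested) was of the enkephalin gene Penk (0.61, SE 0.13). Another Penk probe set gave 0.65 (SE 0.38). Scg2 (1.19) and Pnmt (0.98 and 1.19) were not called. Skeletal muscle markers summed to 119287 on BPH 1 and 127803 on BPL 2, against 7339 to 16677 on the other 4 arrays. Markers of brown fat, which lies against the gland, summed to between 44066 and 73482 in BPH and between 115026 and 333911 in BPL. Of the tested brown fat probe sets 8 of 8 were negative and 3 (37.5%) were called, against 2.52% of all. The called ones were those of the uncoupling proteins Ucp1 (-2.68 and -2.14) and Ucp3 (-1.71). At an unadjusted p under 0.05 there were 7 of the 8 (87.5%), against 19.3%. No tested probe set of the adipocyte, endothelial or blood markers was called, with 3 at an unadjusted p under 0.05. Array BPL 2 was the highest for both tissues.

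A probe set was tested if the mean of its log2 intensities reached the 40th percentile of the table, an intensity of 668.1, and called if its adjusted p in limma was under 0.05. Of the 56 proteasome probe sets 49 were tested, covering 42 genes, and 1 was called, the constitutive beta subunit Psmb6, higher in BPH. That is 2.04% of the tested members, and over all 7293 tested probe sets 2.52% were called, 1.56% higher and 0.96% lower. The median log2 difference, BPH minus BPL, was 0.13 over the members, of which 34 were positive and 15 negative, and 0.03 over all tested probe sets. The median of the members was 0.01 without BPH 1 and BPL 2. At an unadjusted p under 0.05 there were 3 members in each direction, Psmb6, Psmb9 and Psmg2 upward and Psmb2, Psmc6 and a Psmd11 probe set downward. That is 12.2% of the members, against 19.3% of all tested probe sets. The arrays of the strains did not overlap for 10 members, 7 above and 3 below, which is 20.4% of the members, against 26.5% of all.

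**Figure D1:**
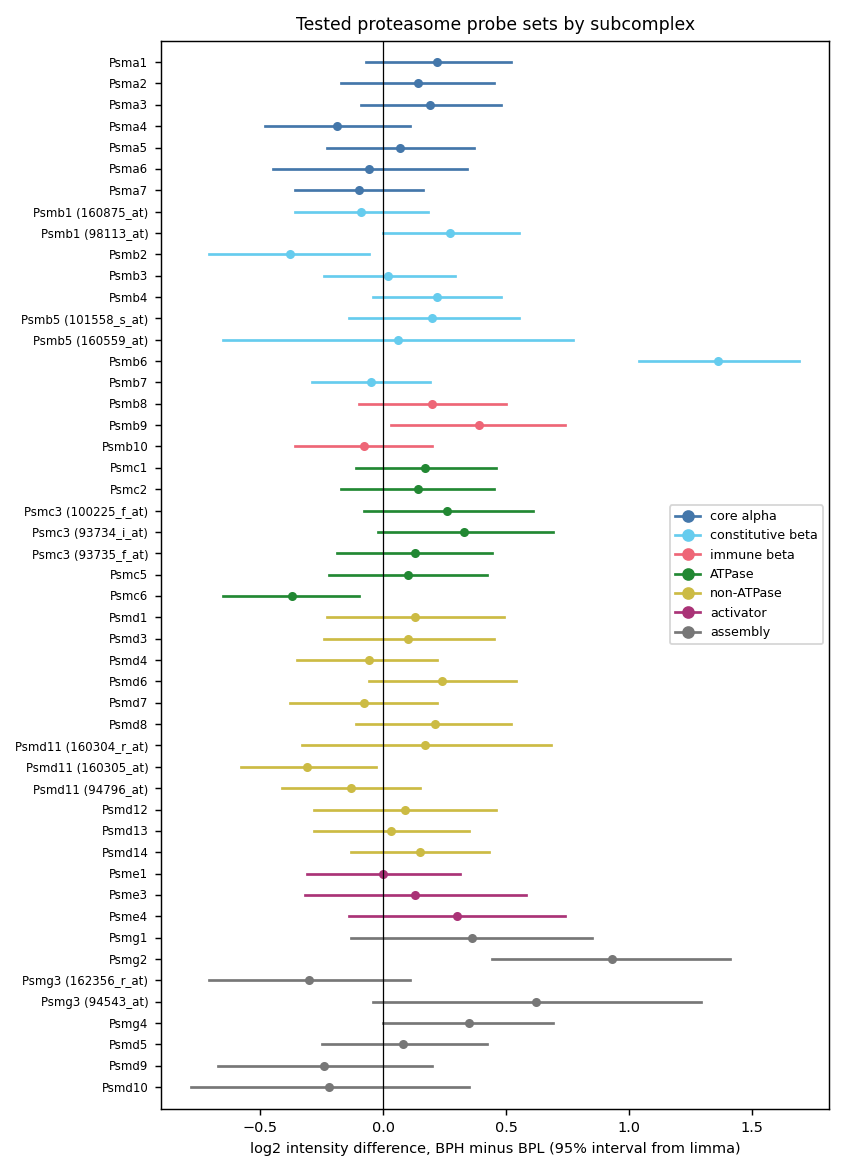
Log2 intensity difference, BPH minus BPL, for the 49 tested proteasome probe sets, coloured by subcomplex; points are limma estimates from 3 arrays per strain and bars their 95% intervals. Psmb6 lies at 1.36 with an interval from 1.04 to 1.69, and Psmg2 is next at 0.93.

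Of the 3 constitutive catalytic subunits, Psmb6 was called and Psmb5 and Psmb7 were not. Psmb6, which cuts after acidic residues, had intensities of 9620, 8629 and 11351 in BPH and 3486, 3711 and 4269 in BPL. Every BPH array lay above every BPL array, and the lowest BPH value was about double the highest BPL value. The means were 9867 ± 1378 and 3822 ± 403 (SD, n = 3), a ratio of 2.58, and the log2 difference was 1.36 (SE 0.14, limma adjusted p = 0.00268). By size, Psmb6 was number 85 of the 7293 tested probe sets, and by p number 16. It was measured by 1 probe set, so no other probe set of the gene bears on it. The probe sequences were not available here, so a strain difference in the sequence under its probes was not tested.

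Psmb7, which cuts after basic residues, had 10590, 9976 and 9528 in BPH and 10383, 10434 and 10327 in BPL. The BPL values fell inside the range of the BPH values, and the log2 difference was -0.05 with a 95% interval from -0.29 to 0.19. Psmb5, which cuts after hydrophobic residues, had 15836, 16831 and 14741 in BPH and 14036, 11131 and 16436 in BPL on its brighter probe set. These ranges overlapped, with BPL 2 lowest, and the log2 difference was 0.20 (95% interval -0.14 to 0.55). The dimmer Psmb5 probe set gave 0.06 (SE 0.31). The intervals of Psmb5 and Psmb7 lie wholly below the estimate for Psmb6, but the difference between subunits was not tested.

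**Figure D2:**
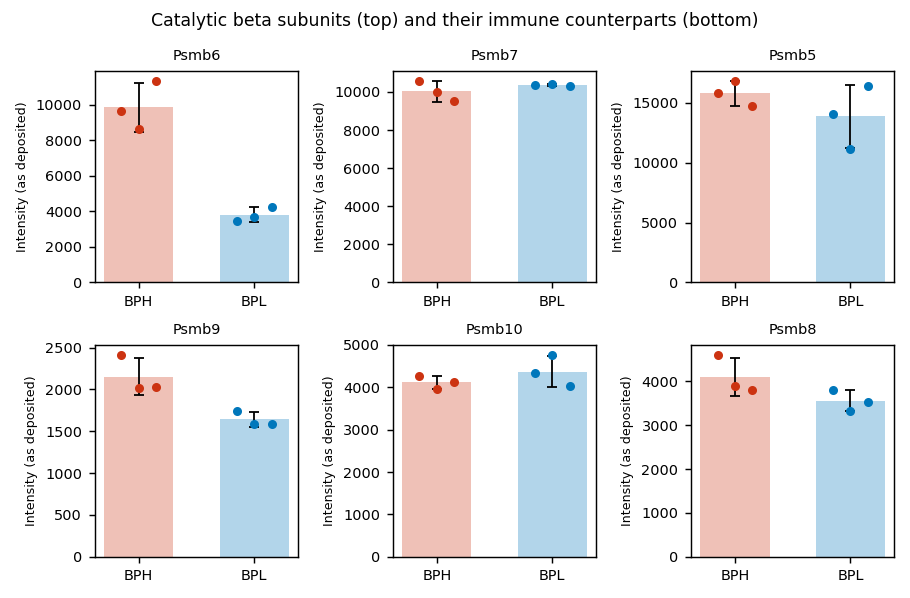
Deposited intensities of the constitutive catalytic subunits Psmb6, Psmb7 and Psmb5 (brighter probe set) and, under each, the immune subunit that replaces it, Psmb9, Psmb10 and Psmb8; dots are arrays, bars the mean of 3 and error bars 1 SD. The 3 BPH arrays of Psmb6 lie at 8629 and above and the BPL arrays at 4269 and below, and heights are not comparable between panels.

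Of the immune subunits none was called in limma, with 1 of 3 at an unadjusted p under 0.05. Psmb9, which takes the place of Psmb6, had 2412, 2022 and 2026 in BPH and 1748, 1589 and 1591 in BPL. The strains did not overlap, with BPH 1 the highest array. The log2 difference was 0.39 (SE 0.16, limma adjusted p = 0.223). Psmb8, the replacement of Psmb5, had 4603, 3885 and 3806 in BPH and 3811, 3335 and 3542 in BPL, which overlap by a small margin, and a log2 difference of 0.20 (95% interval -0.10 to 0.50). Psmb10, the replacement of Psmb7, had 4263, 3965 and 4122 in BPH and 4337, 4762 and 4020 in BPL, with a log2 difference of -0.08 (95% interval -0.36 to 0.20). The median of the immune subunits was 0.20, and 0.07 without BPH 1 and BPL 2.

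The sequences before the starts of Psmb6, the called gene, and Psmb9, its immune counterpart, are shown to set their promoters side by side. They are from RefSeq, GRCm38.p6, read 5′ to 3′ on the strand of each gene, and stop short of any base that the gene table places inside a gene. Psmb6 is at chr11:70525107-70525323 on the plus strand and Psmb9 at chr17:34187331-34187555 on the minus strand. The Psmb9 stretch is the whole gap of 225 bases between Psmb9 and Tap1, a peptide transporter gene that starts in the opposite direction. Capitals mark GGGCGG, a GC box, on either strand (CCGCCC in Psmb6). In Psmb9 they also mark TGANNNNGC, a loose form of the core of an antioxidant response element, which there overlaps the GC box. CCAAT, the box bound by NF-Y, is marked in Psmb9 on the other strand (ATTGG).
Psmb6: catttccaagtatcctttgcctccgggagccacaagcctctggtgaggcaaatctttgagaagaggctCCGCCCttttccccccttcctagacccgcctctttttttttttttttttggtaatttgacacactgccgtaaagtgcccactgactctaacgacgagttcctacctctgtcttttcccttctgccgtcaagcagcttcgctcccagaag
Psmb9: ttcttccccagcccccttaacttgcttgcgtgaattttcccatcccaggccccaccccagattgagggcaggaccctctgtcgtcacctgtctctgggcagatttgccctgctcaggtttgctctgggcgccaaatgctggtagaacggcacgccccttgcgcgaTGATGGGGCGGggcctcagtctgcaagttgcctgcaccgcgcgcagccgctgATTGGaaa

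The same motifs were searched on both strands in windows from 250 bases before to 50 bases after the start, which the RefSeq table holds for 37 of the 44 proteasome genes in 39 windows. GGGCGG was in 56.4% of these windows and in 35.7% of all 32851 windows. TGANNNNGC was in 56.4% and 41.3%, and its stricter form TGANTCAGC in 2.56%, the window of Psmb5, and 1.19%. Psmb6 as well as Psmb9 had TGANNNNGC in its window, for Psmb6 at a place that the printed stretch does not show. CCAAT was in 33.3% and 37.4%. These matches describe the letters in the windows, and binding was not measured.

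Tap1 and Tap2, which carry proteasome products into the endoplasmic reticulum, lie beside Psmb9 and Psmb8 in the histocompatibility region. Tap1, across the gap from Psmb9, had a log2 difference of -0.30 (SE 0.18) on its brighter probe set and 0.15 (SE 0.32) on the other. Tap2 had 2408, 2542 and 2378 in BPH and 1262, 1894 and 1922 in BPL. All BPH arrays were higher, with a log2 difference of 0.55 (SE 0.19, limma adjusted p = 0.166), so it was not called.

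Among the structural beta subunits, Psmb1 to Psmb4, none was called in either direction. Psmb2 had 8885, 7163 and 8524 in BPH and 11476, 11542 and 9082 in BPL. All BPL arrays were higher, by a narrow margin for BPL 3, and the log2 difference was -0.38 (SE 0.14, limma adjusted p = 0.191). Psmb3 gave 0.02 (95% interval -0.24 to 0.29) and Psmb4 0.22 (-0.04 to 0.48). Psmb1 had bright probe sets at 0.27 and -0.09, which differ in sign, and neither was called. The remaining probe sets of Psmb1 and Psmb4 were too dim to be tested.

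The 7 alpha subunits, Psma1 to Psma7, lay between -0.19 (Psma4) and 0.22 (Psma1), with a median of 0.07. The median was -0.08 without BPH 1 and BPL 2. Psma1 had 3041, 3439 and 3497 in BPH and 2772, 3022 and 2748 in BPL. The strains were separate by a small margin, and its limma adjusted p was 0.386. None had an unadjusted p under 0.05. For all 7 the 95% interval lay inside a 1.5-fold change in either direction.

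The ATPases of the cap had a median of 0.14 over 7 tested probe sets, 6 of them positive, and none was called, with 1 at an unadjusted p under 0.05. Psmc6 was the exception in sign, with 20726, 18534 and 17123 in BPH and 22778, 25842 and 24290 in BPL. All BPL arrays were higher, and the log2 difference was -0.37 (SE 0.12, limma adjusted p = 0.141). Psmc3 had 3 probe sets with the same sign (0.13 to 0.33), and Psmc1, Psmc2 and Psmc5 gave 0.17, 0.14 and 0.10. Psmc4, with intensities from 101.1 to 506.9, was not tested. Without BPH 1 and BPL 2 the median of the ATPases was near 0.

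The non-ATPase subunits of the cap lay between -0.31 and 0.24 on 12 tested probe sets, and none was called, with 1 at an unadjusted p under 0.05. Their median was 0.10, and -0.03 without BPH 1 and BPL 2. Psmd11, a scaffold subunit, gave the lowest value and did not give 1 answer across its probe sets. The probe set at -0.31 (SE 0.12, limma adjusted p = 0.215) had 3531, 3717 and 3885 in BPH and 4248, 4692 and 4853 in BPL. Its strains were separate, while the other probe sets of the gene overlapped, at -0.13 (SE 0.13) and 0.17 (SE 0.22). Psmd14, which removes ubiquitin chains, gave 0.15 (SE 0.12), and the ubiquitin receptor Psmd4 gave -0.06 (SE 0.13). Psmd6 (0.24), Psmd8 (0.21), Psmd1 (0.13), Psmd3 (0.10), Psmd12 (0.09), Psmd13 (0.03) and Psmd7 (-0.08) make up the rest. For 11 of the 12 probe sets the 95% interval lay inside a 1.5-fold change. Psmd2, a scaffold of the cap, was not tested. It had 478.5, 562.8 and 451.7 in BPH and 447.1, 111.9 and 80.0 in BPL, with BPL 2 and BPL 3 under the floor of 201.3 that was set on low values.

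Of the activators, Psme1 of the interferon-induced PA28 ring had 9969, 7759 and 8032 in BPH and 8786, 7698 and 9163 in BPL. The strains overlapped, with a log2 difference of 0.00 (95% interval -0.31 to 0.31). Psme3, the nuclear form, gave 0.13 (SE 0.20). Psme4, the PA200 activator, had the largest difference of these at 0.30 (SE 0.20), with 2553, 3427 and 2986 in BPH and 3114, 2041 and 2210 in BPL, where BPL 1 lay within the BPH range. Another Psme1 probe set was too dim to be tested.

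The assembly factors ran from -0.30 to 0.93 on 8 tested probe sets with a median of 0.21, and none was called, with 1 at an unadjusted p under 0.05. The median was 0.07 with the fluidics station as a block, a fit in which the strain difference rests on BPH 3 against the BPL arrays. Psmg2, which pairs with Psmg1 to build the alpha ring, had 2400, 2820 and 2506 in BPH and 1495, 991.1 and 1671 in BPL. Every BPH array was higher, and BPL 2 was the lowest. The means were 2575 ± 219 and 1386 ± 353 (SD, n = 3). The log2 difference was 0.93 (SE 0.22), and at a limma adjusted p of 0.0663 it was not called. The 95% interval ran from 0.44 to 1.41. Its adjusted p ran from 0.0360 to 0.669 over 18 alternative settings, with 3 of them under 0.05.

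Psmg1, the partner of Psmg2, had 2812, 2511 and 3588 in BPH and 3065, 2056 and 1899 in BPL. The strains overlapped, and the log2 difference was 0.36 (SE 0.22). Psmg4 gave 0.35 (SE 0.15, limma adjusted p = 0.258). Its partner Psmg3 gave 0.62 (SE 0.30) on a dimmer probe set and -0.30 (SE 0.18) on a brighter one, so its direction depended on the probe set. The chaperones of the cap base, Psmd5 (0.08), Psmd9 (-0.24) and Psmd10 (-0.22), were not called.

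**Figure D3:**
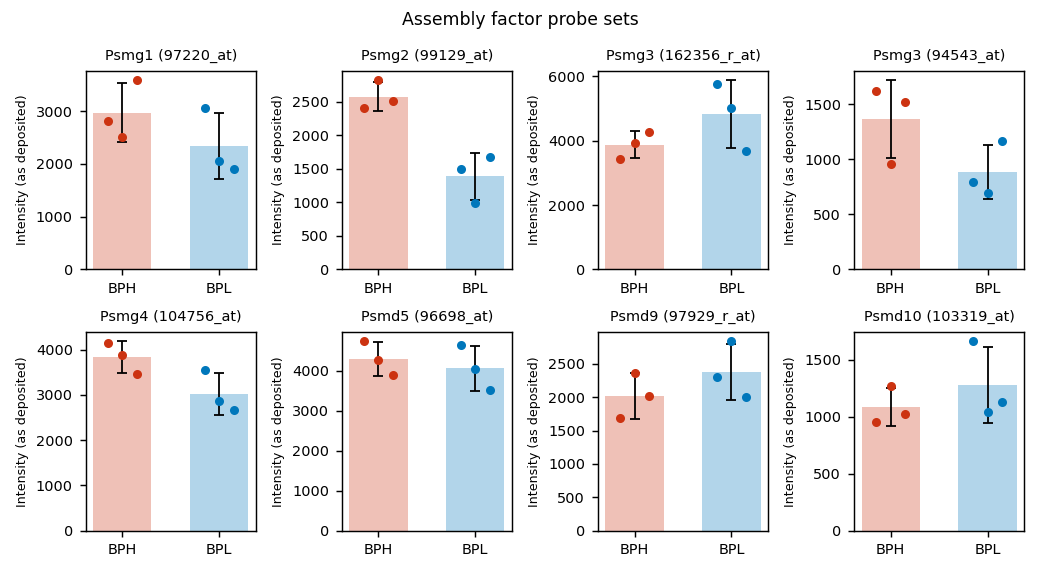
Deposited intensities of the 8 assembly factor probe sets; dots are arrays, bars the mean of 3 and error bars 1 SD. For Psmg2 the BPH arrays lie between 2400 and 2820 and the BPL arrays between 991.1 and 1671, while the Psmg3 probe sets differ in direction.

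No member other than Psmb6 was called. The other 48 tested probe sets ran from -0.38 to 0.93, with a median of 0.11. For 33 of the 49 members the 95% interval lay inside a 1.5-fold change in either direction, and for 46 inside a 2-fold change. Among all 7293 tested probe sets these counts were 2726 and 5771. The median standard error was 0.14 for the members and 0.18 for all.

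**Figure D4:**
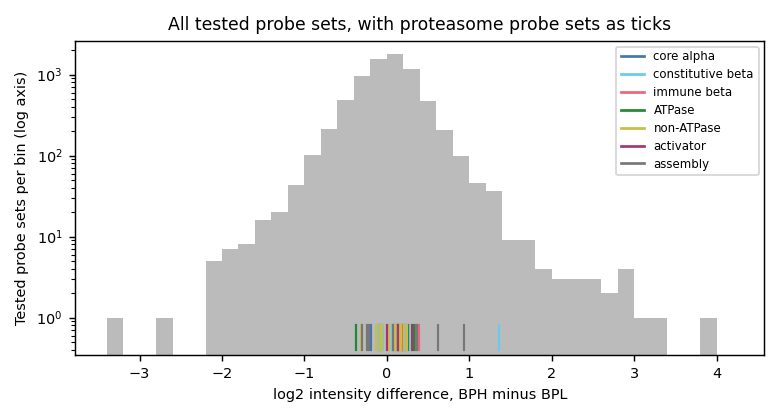
Histogram of the log2 intensity difference, BPH minus BPL, of all 7293 tested probe sets on a log count axis, with the 49 proteasome probe sets as ticks coloured by subcomplex. Most ticks lie between -0.38 and 0.39; 3 stand further right, a Psmg3 probe set at 0.62, Psmg2 at 0.93 and Psmb6 at 1.36.

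Some of the spread followed single arrays. BPL 2 was the lowest of the 6 arrays for 21 of 49 members (42.9%), against 29.5% of all tested probe sets. BPH 1 was the highest for 19 members (38.8%), against 14.5%. These are the arrays with the skeletal muscle transcripts, and the part of muscle RNA in the member values was not tested. In whole-gland RNA, fewer cells of a type and less RNA per cell cannot be told apart. The difference of Psmb6 was 1.36 without BPH 1 and BPL 2 (SE 0.18, limma adjusted p = 0.0160), as large as with them.

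**Figure D5:**
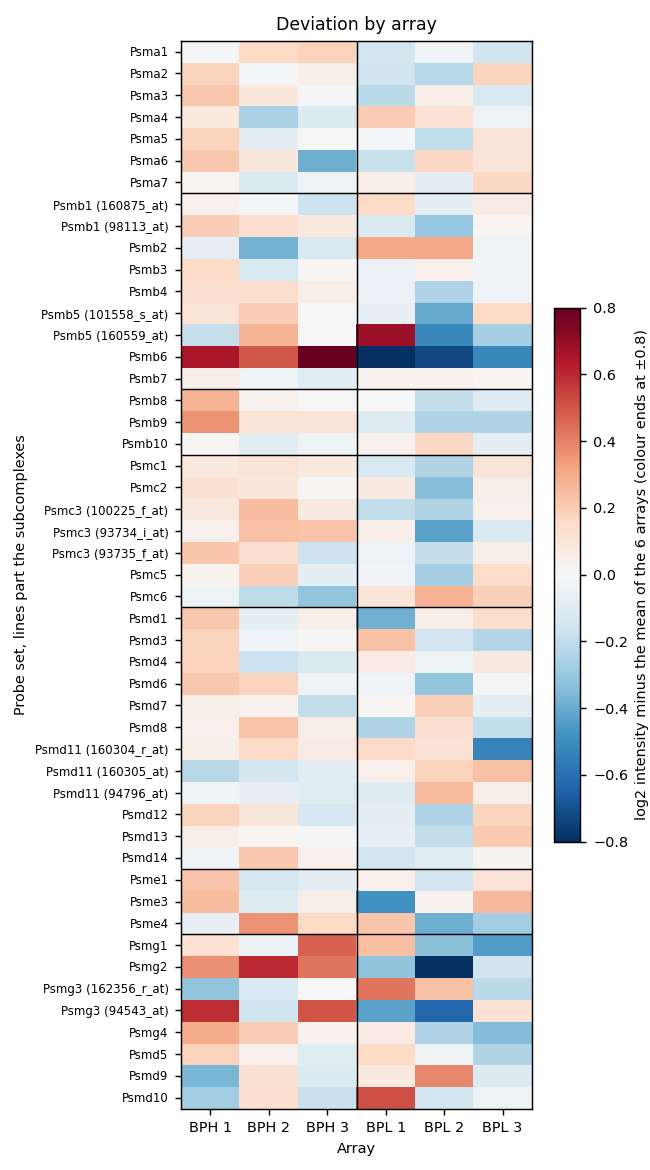
Log2 intensity of each tested proteasome probe set minus its mean over the 6 arrays, one row per probe set and one column per array; red is above the mean, blue below, and colours end at 0.8. Psmb6 is red on all 3 BPH arrays and blue on all 3 BPL arrays, and the BPL 2 column holds the lowest value of 21 probe sets.

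The array run files name 2 fluidics stations. BPH 1 and BPH 2 were washed on station 2 and the other 4 arrays on station 1. Within station 1, which sets BPH 3 alone against the BPL arrays and assumes that this lone array varies like the others, Psmb6 differed by 1.58 (SE 0.23, limma adjusted p = 0.0840), so the call ended while the size held. With the station as a block the strain difference again rests on BPH 3 against the BPL arrays, since station 2 held only BPH arrays. The equal Psmb6 estimate in that fit is therefore fixed by the design and is not a separate check. Psmg2 gave 0.89 in both fits for the same reason.

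Genes that work with the proteasome were taken from a list of 59, of which 43 were found, with 54 tested probe sets. Of these 1 was called higher and 1 lower, 3.7% against the 2.52% of all tested probe sets, and the median was 0.00. Ubqln1, a shuttle that brings tagged proteins to the proteasome, was higher in BPH at 7379, 7601 and 7539, against 5391, 4256 and 5101. The strains were well apart, with a log2 difference of 0.62 (SE 0.13, limma adjusted p = 0.0426), but another Ubqln1 probe set gave -0.03 (SE 0.17). Another shuttle gene, Rad23b, had 2 probe sets at 0.56 (limma adjusted p = 0.0671) and 0.34 (limma adjusted p = 0.213), and neither was called. Sqstm1, an autophagy receptor for tagged proteins, gave -0.42 (SE 0.16) and 1 of 4 Bag6 probe sets 0.61 (SE 0.24), and these were not called.

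Among partners and maturation factors of the particle, 0 of 9 tested probe sets were called or at an unadjusted p under 0.05 in limma, and for 7 of the 9 the 95% interval lay inside a 1.5-fold change. They include Pomp (-0.10), which guides core assembly, the small cap subunit Sem1 (0.06), the deubiquitinase Uchl5 (0.20, 95% interval -0.42 to 0.82), Ecpas (-0.23, 95% interval -0.65 to 0.19) and Akirin2 (0.22 and 0.00). Among transcription factors of proteasome genes, Nfe2l1, which raises their transcription when the proteasome fails, gave -0.08 and -0.01. Nfe2l2, its relative in the antioxidant response, gave 0.42 (SE 0.11, limma adjusted p = 0.0884). Its intensities were 10783, 11819 and 12148 in BPH and 8337, 9190 and 8516 in BPL, which do not overlap, but it was not called. The NF-Y subunits Nfya and Nfyb gave 0.20 and 0.45. Of 7 ubiquitin and activating enzyme genes listed only Uba3 was measured here, at -0.03.

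Interferon induces the immune subunits. The interferon list holds receptor and signalling genes as well as genes that interferon induces. It ran in both directions, with 5 positive and 10 negative of 15 tested probe sets and a median of -0.27. At an unadjusted p under 0.05 there were 2 upward and 4 downward, 40% of the 15, against 19.3% of all tested probe sets. Ifit3 was lower in BPH (-1.01, SE 0.22, limma adjusted p = 0.0477) and was the called member, 6.67% of the list against 2.52% of all. Gbp3 gave -0.62, Rsad2 -0.70 and the receptor chain Ifngr1 0.58, none of them called. Of the class I peptide loading genes 0 of 10 tested probe sets were called, with 2 (20%) at an unadjusted p under 0.05, near the 19.3% of all. B2m, the invariant chain of class I molecules, gave 0.50 (SE 0.19), and the chaperone Canx gave -0.27 and 0.24 on its 2 probe sets. Immune cells are rich in immune subunits, so their markers stand beside these values. Macrophage markers summed to between 22403 and 24000 in BPH and between 22585 and 26359 in BPL, with 3 of 9 tested probe sets positive and none called. At an unadjusted p under 0.05 there were 4 of the 9 (44.4%), against 19.3% of all tested probe sets. These were Lyz2 at 0.49 and Csf1r at 0.44 upward and C1qb at -0.80 and C1qc at -0.38 downward. Another probe set gave -0.18 (SE 0.25) for Csf1r and -0.14 (SE 0.20) for C1qb. Lymphocyte markers summed to between 2868 and 3724 in BPH and between 3839 and 4229 in BPL. Of 9 lymphocyte probe sets, 2 were tested (Cd79a and Cd4) and 4 were under the floor on at least 4 arrays. The part of these cells in the values of Psmb8, Psmb9 and Psmb10 was not tested.

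Of the genes that match the pattern by name only, Psme3ip1 gave 0.19 (SE 0.19) and Psmc3ip was under the floor on all 6 arrays.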

How the data were processed

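The deposited microarray intensities are linear. Their trimmed means (2% at each end) were 2501.3 to 2501.5 on the 6 arrays, so the authors had scaled them, and they were used without rescaling. The software and the background step are not given in the sources used here. A floor at the 20th percentile of the table (201.3) was set before log2. The 66 control probe sets and probe sets under the 40th percentile were left out, which left 7293. Strains were compared in limma 3.58.1 under R 4.3.3 (lmFit, then eBayes with the trend option), two-sided, with Benjamini-Hochberg adjustment over all tested probe sets. The array run files, deposited as text, were used here only for the fluidics station. Station entered only the alternative station settings, and the main fit held strain alone.

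Names came from the platform annotation (1 gene for 10855 probe sets, several for 396, none for 1237), and all 58 members matched a RefSeq symbol of GRCm38.p6. Members, lists, motifs and the rule for printed genes were chosen with earlier results of these data known. Per-array values are given for called members, the member with the largest difference of each subcomplex, the catalytic and immune subunits, Psme1 and any gene whose probe sets differ in sign with 1 at an unadjusted p under 0.05 (Psmd11), and for a few others picked after their values were seen (Tap2, Ubqln1, Nfe2l2, Psmb2, Psmd2, Psmg1 and Med11). Of each list, called members and up to 4 with the smallest p are named, with a few others chosen for their role.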

Additional observations from a re-analysis of the deposited data

How the results depend on the processing

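Psmb6 was called under 17 of 18 alternatives, with log2 differences from 1.26 to 1.58. Within station 1 it was not called (1.58). The count of called members was 2 with scaling to one median, 2 with the filter at the 60th percentile, and 0 within station 1; leaving out each array gave 1 to 2. Psmg2 was the added member in the counts of 2, without BPL 3 as well. The 184 calls over all probe sets became 52 with no filter, 83 without the intensity trend, 18 with the station as a block, 7 within station 1, 48 at an adjusted p under 0.01, and 42 to 361 when an array was left out. The member median of 0.13 was 0.01 without the 2 arrays with muscle transcripts, an alternative chosen after seeing the data, and 0.05 to 0.18 when an array was left out. For the related list, 0 of its 2 calls were left with no filter, no trend, the replicate block, either station setting or without the 2 muscle arrays. There were 4 with the filter at the 60th percentile and 0 to 1 when an array was left out; its median was 0.07 without the muscle arrays and -0.05 to 0.06 when an array was left out. The replicate numbers were not taken as pairs, since same-numbered arrays deviated with correlations of -0.22, -0.08 and 0.01; with the replicate block 124 probe sets and 1 member, Psmb6, were called. The cause of these shifts was not tested. Arrays per strain limit the precision, with a median SE of 0.14 for the members.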

Other observations

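Few of the genes beside Psmb6 were measured. Among the 6 protein-coding genes on either side in the RefSeq order, looked up after the Psmb6 value was seen, 4 have a named probe set. Pld2, 2 genes away, had a log2 difference of 0.11 (SE 0.20, limma adjusted p = 0.798). The Chrne probe sets that were tested gave -0.72 (SE 0.59) and 0.62 (SE 0.26) and were not called. Med11, a Mediator subunit gene that was too dim to be tested, had 898.7, 793.3 and 898.9 in BPH and 248.1, 727.8 and 546.8 in BPL, and Tm4sf5 was under the floor on 5 arrays.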
